A study of Homo sapiens with 12 samples.

Results

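The strands described here come from the microRNA hairpins miR-10a, miR-10b, miR-196a and miR-196b, which lie inside the 4 HOX gene clusters. They were taken by name, as every entry of either comparison that begins with hsa-miR-10a-, hsa-miR-10b-, hsa-miR-196a or hsa-miR-196b. This gave 6 strands among the 952 microRNAs of the study, of which 5 were in both comparisons. miR-196a-1-3p was in the comparison of sgCYRANO with sgNT and is not analysed here for the other. Small RNA was sequenced from K562, a human erythroleukaemia cell line, in 12 libraries. Cells with the genotype ZSWIM8-/- (ZSWIM8 KO) were set against wild-type K562 (WT), neither with a guide RNA. In the second comparison the cells carried a guide RNA to CYRANO, a long non-coding transcript (sgCYRANO), or a non-targeting guide RNA (sgNT). Each group had 3 libraries, which the depositors call biological triplicates of each line. The p-values therefore concern libraries of 1 line. For several strands they rest mainly on a spread shared by all microRNAs, as described below. The sources used here do not say how the knockout was made, whether it is 1 clone, or which Cas9 system carried the guides.

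MicroRNAs are cut from a hairpin that yields a 5p and a 3p strand, and the strand held by an Argonaute protein pairs with target mRNAs, mainly through its seed, the bases 2 to 8. The miR-10 and miR-196 genes have kept their places beside the HOX genes in animals, and HOX mRNAs are among their known targets, such as HOXB8 for miR-196 in mouse embryos. In blood, miR-10a is known from immature progenitors and miR-196b from stem cells and acute leukaemias with MLL rearrangements. ZSWIM8 is the substrate receptor of a ubiquitin ligase that acts in target-directed microRNA decay, in which extensive pairing with another RNA causes a microRNA to be degraded. For miR-7 that other RNA is CYRANO.

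The strands fall into a miR-10 and a miR-196 family by sequence. The mature sequences, from RefSeq (GRCh38.p14), are shown because reads of close relatives can be confused, with bases 2 to 8 in capitals.
miR-10a-5p: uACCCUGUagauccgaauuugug
miR-10a-3p: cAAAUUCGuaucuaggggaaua
miR-196a-5p: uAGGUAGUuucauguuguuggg
miR-196b-5p: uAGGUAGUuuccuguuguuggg
miR-196a-1-3p: cAACAACAuuaaaccacccga
miR-100-5p: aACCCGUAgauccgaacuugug
miR-10b-5p is named only. The sequences of miR-196a-5p and miR-196b-5p have the same seed and differ by A12C alone, counted from the 5′ end of miR-196a-5p. miR-100-5p, a relative from outside the HOX clusters, has an unbroken run of 11 bases in common with miR-10a-5p, GUAGAUCCGAA, which starts at base 7 of miR-10a-5p and at base 6 of miR-100-5p. The sources used here do not say how reads that fit several relatives were assigned, so values of scarce relatives of an abundant strand are uncertain.

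The hairpins are spread over 4 chromosomes. Positions are those of RefSeq in GRCh38.p14, and the genes are those of GENCODE release 29. MIR10A (chromosome 17, 48579838 to 48579947, - strand) lies in the HOXB cluster, in an intron of HOXB3 and within an exon of an annotated HOXB4 transcript. MIR196A1 (chromosome 17, 48632490 to 48632559, - strand) lies 52.5 kb away in an intron of HOXB7. MIR196A2 (chromosome 12, 53991738 to 53991847, + strand) lies in the HOXC cluster, in an intron of an annotated HOXC6 transcript, and gives the same miR-196a-5p as MIR196A1. MIR10B (chromosome 2, 176150303 to 176150412, + strand) lies in the HOXD cluster, in an intron of HOXD3 beside HOXD4. MIR196B (chromosome 7, 27169480 to 27169563, - strand) lies in the HOXA cluster, in an exon of an annotated HOXA9 transcript.

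Each comparison was read from 1 of the authors' deposited tables, with 868 microRNAs for ZSWIM8 KO against WT and 837 for sgCYRANO against sgNT. Fold changes were read as ZSWIM8 KO over WT and sgCYRANO over sgNT, since the headers give no direction. Read this way, miR-7-5p had log2 fold changes of 2.35 and 2.52 in the authors' deposited tables, higher where ZSWIM8 or CYRANO was disrupted. If the tables run the other way, the groups of a comparison change places in all that follows. Group means in CPM (reads scaled to 1000000 per library) were recovered from the deposited columns, and values of single libraries were used for scarce strands only, as whole reads. Library totals recovered from the smallest values lay between 861000 and 2490000 reads. A total of 3 reads over the libraries of a group, used as the counting limit, came to 0.425 CPM in ZSWIM8 KO, 0.788 in WT, 0.567 in sgCYRANO and 0.546 in sgNT, a limit that covers counting error only. Of 5 erythroid marker strands, 5 were at 10 CPM or more in each group. Their summed levels were 13290 to 16250 CPM, most of it miR-486-5p. Of 10 markers of other cell types, 6 were measured, with summed levels of 95.7 to 127.6 CPM, most of it miR-200c-3p.

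miR-10a-5p, a strand of the HOXB cluster, made up nearly all reads of the set. hsa-miR-10a-5p averaged 22328 CPM in ZSWIM8 KO and 21178 CPM in WT, and 24778 CPM in sgCYRANO and 26002 CPM in sgNT. It ranked 7th to 9th among all microRNAs in these groups and held 96.2% to 96.8% of the summed level of the set. The whole set held 2.31% of all CPM in ZSWIM8 KO, 2.20% in WT, 2.56% in sgCYRANO and 2.69% in sgNT. As in all such data, fewer molecules per cell and a larger total of other microRNAs cannot be told apart in CPM.

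The next strands were about 50 times scarcer or more. hsa-miR-10a-3p, the partner strand of the same hairpin, had 377.7 CPM in ZSWIM8 KO, 420.9 CPM in WT, 403.2 CPM in sgCYRANO and 499.4 CPM in sgNT. The 5p strand of this hairpin was thus 59.1, 50.3, 61.5 and 52.1 times as abundant as the 3p strand, in the same order of groups. hsa-miR-196a-5p had 335.6 CPM in ZSWIM8 KO, 293.5 CPM in WT, 309.0 CPM in sgCYRANO and 253.3 CPM in sgNT. hsa-miR-10b-5p had 26.4 CPM in ZSWIM8 KO, 114.4 CPM in WT, 153.6 CPM in sgCYRANO and 162.5 CPM in sgNT. Its mean in ZSWIM8 KO stands apart from those of the other groups, although levels of the 2 tables were scaled separately. The strands are of like length, and levels of different strands also carry the biases of ligation and mapping.

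The order of levels was the same in the 4 groups for the strands above 10 CPM. miR-10a-5p came first, then miR-10a-3p, miR-196a-5p and miR-10b-5p. Of these neighbours, miR-10a-3p and miR-196a-5p did not differ beyond their error in ZSWIM8 KO, with a log2 ratio of 0.17 and a 95% interval of -0.11 to 0.45, or in sgCYRANO, with 0.38 and an interval of -0.01 to 0.78. These intervals take the error of a group mean from that of the fold change, with equal spread in both groups. In WT and sgNT the same pair differed, with log2 ratios of 0.52 and 0.98. Whether this ratio differs between the groups of a comparison was not tested.

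**Figure D1:**
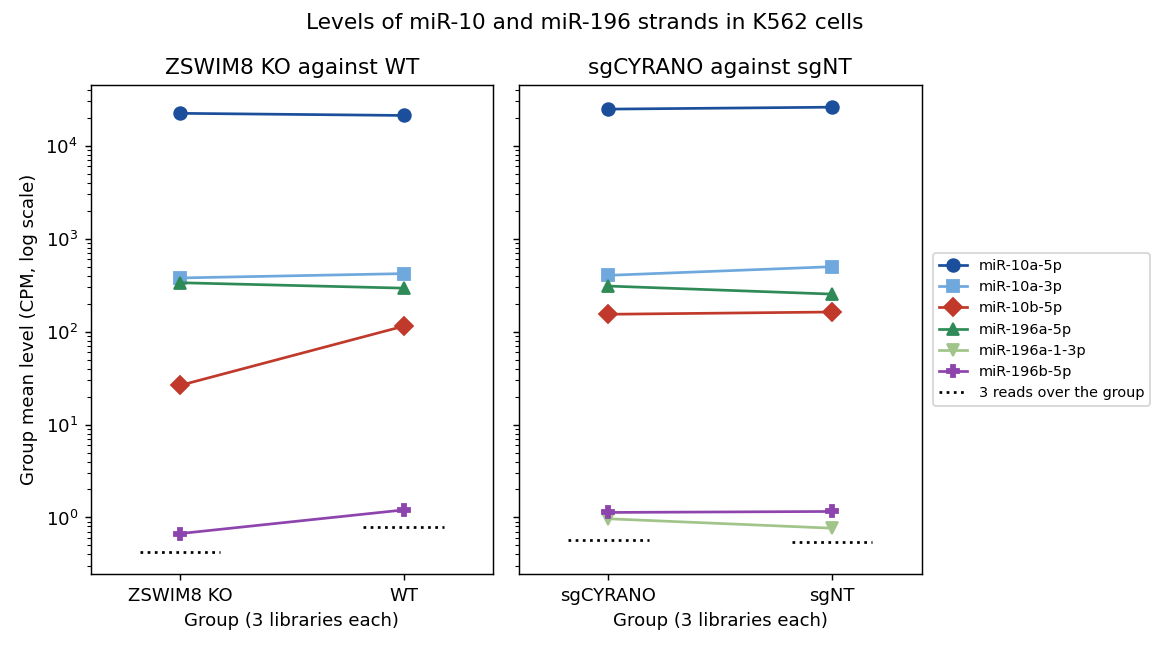
Group mean level in CPM (log scale) of each miR-10 and miR-196 strand, ZSWIM8 KO left of WT and sgCYRANO left of sgNT, with a line joining the means of a strand and dotted marks at 3 reads over the group. miR-10b-5p had 26.4 CPM in ZSWIM8 KO and 114.4 CPM in WT, while the lines of the other strands above 10 CPM are near flat.

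The 2 scarcest strands could be read as whole reads. miR-196b-5p, from the HOXA cluster, had 5 reads in all in ZSWIM8 KO (0.671 CPM) and 6 in WT (1.20 CPM). It had 6 reads in sgCYRANO (1.13 CPM) and 6 in sgNT (1.16 CPM). Of the 6 reads in WT, 5 fell in the deepest library, 1 in the next and 0 in the shallowest. The 6 reads in sgCYRANO fell 1, 4 and 1 and those in sgNT 1, 5 and 0, from the deepest library to the shallowest. An exact Poisson 95% interval for 6 reads runs from 2.20 to 13.1, so changes of several fold were not detectable at this depth. miR-196a-1-3p, the partner strand from MIR196A1, had 5 reads in sgCYRANO (1, 1 and 3) and 4 in sgNT (1, 2 and 1). Its sister miR-196a-5p was at 309.0 CPM in sgCYRANO and 253.3 CPM in sgNT. Both of its hairpins can give that sequence, so the share of each in the level is not known. miR-196a-5p was 500.4 times as abundant as miR-196b-5p in ZSWIM8 KO and 243.6 times in WT, and 272.9 times in sgCYRANO and 218.4 times in sgNT, ratios limited by the few reads of miR-196b-5p.

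The first comparison asked which of these strands differ when ZSWIM8 is lost. By the authors' edgeR test, 0 of 5 strands passed an adjusted p of 0.05, where 9.91% of all 868 microRNAs did, 4.72% higher and 5.18% lower in ZSWIM8 KO. At an unadjusted p under 0.05 there was 1 of 5, miR-10b-5p, where 19.8% of all microRNAs were under that value. The median log2 fold change of the 5 strands was -0.16, beside 0.08 over all microRNAs.

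Both strands of miR-10a had levels in ZSWIM8 KO close to those in WT. In the authors' deposited table, miR-10a-5p had a log2 fold change of 0.08 ± 0.08 (standard error implied by the deposited p, here and below) and an adjusted p of 0.652 (edgeR). Its 95% interval ran from -0.08 to 0.23, which is a fold of 0.948 to 1.17. miR-10a-3p had -0.16 ± 0.14 with an adjusted p of 0.607 (edgeR) in the authors' deposited table, and an interval of -0.43 to 0.11. The arms of the hairpin were also compared. The log2 fold change of the 5p arm minus that of the 3p arm was 0.23 ± 0.16 (adjusted p = 0.680, normal test over 209 hairpins, of which 11 passed).

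miR-10b-5p, the paralogue from the HOXD cluster, had the largest difference of the set. Its mean was 26.4 CPM in ZSWIM8 KO and 114.4 CPM in WT, so WT was 4.32 times as high. The authors' deposited table gave -2.11 ± 0.87, an unadjusted p of 0.0156 and an adjusted p of 0.11 (edgeR), and the 95% interval ran from -3.82 to -0.40. The difference therefore did not pass the threshold over all microRNAs. It passed with an adjusted p of 0.0473 (edgeR test, adjusted again) once the microRNAs below 10 CPM had been dropped. In that setting 102 of the 304 microRNAs left passed, this strand among them. The adjusted p of miR-10b-5p ran up to 0.336 over the alternatives. Of the 304 microRNAs at 10 CPM or more, 4 (1.32%) had a log2 fold change of -2 or below, a limit chosen after the values were seen. These were miR-222-3p, miR-221-3p, miR-100-5p and miR-10b-5p.

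The error of miR-10b-5p was wide for its level. Taken from the deposited F, it was 2.49 times the median of the 51 microRNAs of nearest level, the 18th largest ratio among the 304 at 10 CPM or more, of which 22 had a ratio of 2 or more. The degrees of freedom implied by its F and p were 4.73, against 164 for most microRNAs at 10 CPM or more in this table. With so few degrees, its test rested mainly on its own spread between the 6 libraries and little on the spread of other microRNAs. For miR-10a-5p, miR-10a-3p and miR-196a-5p, with 164 degrees each, the reverse held. Which library or group carried that spread cannot be read from the deposited columns. In sgCYRANO against sgNT the error of the same strand equalled the median of microRNAs of like level.

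**Figure D2:**
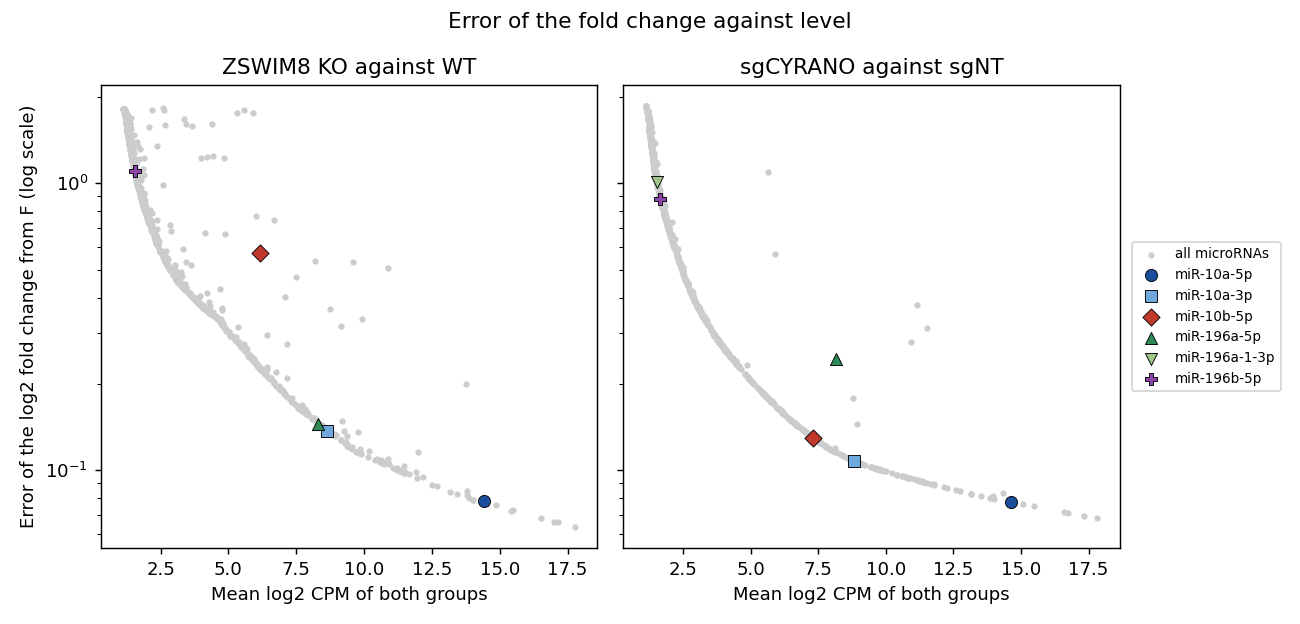
Error of the log2 fold change, taken from the deposited F (log scale), against the mean log2 CPM of both groups, for every microRNA (grey) and the miR-10 and miR-196 strands, with ZSWIM8 KO against WT on the left and sgCYRANO against sgNT on the right. Most microRNAs lie along 1 curve, above which miR-10b-5p stands 2.49-fold on the left and miR-196a-5p 2.08-fold on the right.

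The paralogues miR-10a-5p and miR-10b-5p thus had unlike values in ZSWIM8 KO. The log2 fold change of miR-10a-5p minus that of miR-10b-5p was 2.19 ± 0.88, with a 95% interval of 0.47 to 3.91, given as a description since the pair was chosen with earlier results known. miR-10a-5p was 846.9 times as abundant as miR-10b-5p in ZSWIM8 KO and 185.2 times in WT. It was 161.3 times as abundant in sgCYRANO and 160.0 times in sgNT. Since miR-10b-5p was at most 0.621% of the sum of both paralogues, a small share of miR-10a reads assigned to miR-10b would weigh on its level. Such assignment was not tested.

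The miR-196 strands did not pass in ZSWIM8 KO. In the authors' deposited table miR-196a-5p had 0.19 ± 0.15 with an adjusted p of 0.510 (edgeR), and an interval of -0.09 to 0.48. miR-196b-5p had -0.74 ± 1.10 with an adjusted p of 0.784 (edgeR) in that table, an interval of -2.91 to 1.42 that rests on 5 reads in ZSWIM8 KO and 6 in WT. The deposited fold changes are not centred. Here the 304 microRNAs with 10 CPM or more had a median log2 fold change of 0.13. Relative to that median, miR-10a-5p was at -0.05, miR-10a-3p at -0.29, miR-10b-5p at -2.24, miR-196a-5p at 0.06 and miR-196b-5p at -0.87, so the sign of miR-10a-5p turned.

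The second comparison asked which of these strands differ when CYRANO is targeted. By the authors' edgeR test 0 of 6 strands passed an adjusted p of 0.05, where 0.119% of all 837 microRNAs did, which is miR-7-5p alone. At an unadjusted p under 0.05 there was 1 of 6, miR-10a-3p, where 5.85% of all microRNAs were under that value. The median log2 fold change of the 6 strands was -0.05, beside 0.01 over all microRNAs.

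The 5p strands of the miR-10 family had nearly the same level with and without the CYRANO guide. In the authors' deposited table, miR-10a-5p had -0.07 ± 0.08 with an adjusted p of 0.980 (edgeR), and an interval of -0.22 to 0.08. miR-10b-5p had -0.08 ± 0.13 with an adjusted p of 0.984 (edgeR) in that table, and an interval of -0.34 to 0.17. The difference between these paralogues was 0.01 ± 0.15 on the log2 scale, with an interval of -0.28 to 0.31.

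The partner strand miR-10a-3p had the smallest p of the set. Its mean was 403.2 CPM in sgCYRANO and 499.4 CPM in sgNT. The authors' deposited table gave -0.31 ± 0.11, an unadjusted p of 0.00436 and an adjusted p of 0.405 (edgeR), with an interval of -0.52 to -0.10. The difference did not pass over all microRNAs, and the interval left room for a fold no lower than 0.697. The log2 fold change of the 5p arm minus that of the 3p arm was 0.24 ± 0.13 (adjusted p = 0.969, normal test over 201 hairpins, of which 1 passed).

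miR-196a-5p had a positive value with a wide error in sgCYRANO. Its mean was 309.0 CPM in sgCYRANO and 253.3 CPM in sgNT, with 0.29 ± 0.26 and an adjusted p of 0.980 (edgeR) in the authors' deposited table. Its interval ran from -0.23 to 0.80. Its error from F was 2.08 times that of microRNAs of like level, the 6th largest ratio of 299, and the implied degrees of freedom were 7.41, against 3348 for most microRNAs at 10 CPM or more. The scarce strands had -0.03 ± 0.99 (miR-196b-5p) and 0.29 ± 1.11 (miR-196a-1-3p) in the authors' deposited table, with adjusted p-values of 0.996 and 0.984 (edgeR).

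**Figure D3:**
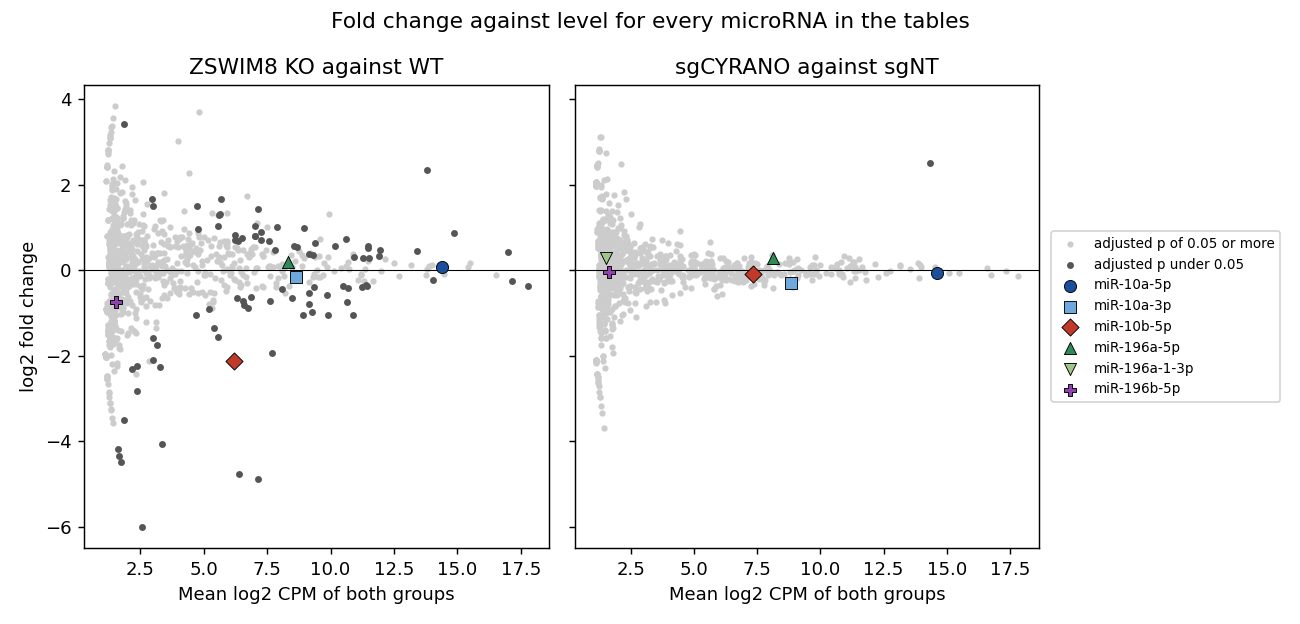
Log2 fold change against mean log2 CPM of both groups for every microRNA, dark where the adjusted p was under 0.05, with the miR-10 and miR-196 strands marked, for ZSWIM8 KO against WT (left) and sgCYRANO against sgNT (right). On the left miR-10b-5p lies at -2.11, and the marked strands at higher levels lie between -0.16 and 0.19.

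The effects of both disruptions were then set against each other, which is possible because they share no library. For miR-10b-5p the log2 fold change in ZSWIM8 KO minus that in sgCYRANO was -2.03 ± 0.88, with an unadjusted p of 0.0214 and an adjusted p of 0.179 (normal test over 753 microRNAs, of which 50 passed). The difference was 0.15 ± 0.11 for miR-10a-5p, 0.15 ± 0.18 for miR-10a-3p, -0.09 ± 0.30 for miR-196a-5p and -0.71 ± 1.48 for miR-196b-5p, with adjusted p-values of 0.615 to 0.933 in the same test. No strand of the set that was in both comparisons was thus shown to respond differently to the loss of ZSWIM8 and to the CYRANO guide.

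Further microRNAs of the HOX clusters were set beside the family members. The list of 13 strands of hairpins in these clusters includes the set itself. Of these, 7 were measured in ZSWIM8 KO against WT and 8 in sgCYRANO against sgNT. Beyond the set, only miR-615-3p and miR-7704 were measured. By the authors' edgeR test 0 passed in either comparison, where 9.91% and 0.119% of all microRNAs passed. At an unadjusted p under 0.05 there were 2 of 7 and 1 of 8, where 19.8% and 5.85% of all microRNAs were. These were miR-7704 and, counted again from the set, miR-10b-5p in the first comparison and miR-10a-3p in the second. miR-615-3p, from an intron of HOXC5 42.1 kb from MIR196A2, had 623.8 CPM in ZSWIM8 KO and 661.4 CPM in WT. It had 745.4 CPM in sgCYRANO and 788.8 CPM in sgNT, with -0.08 ± 0.13 and -0.08 ± 0.10 in the authors' deposited tables.

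miR-7704 is annotated 38.4 kb from MIR10B, within an exon of HOXD1 and opposite an exon of the antisense RNA HAGLR. It was scarce, with 1.85 CPM in ZSWIM8 KO and 8.45 CPM in WT, and with 1.78 CPM in sgCYRANO and 1.61 CPM in sgNT. The authors' deposited table gave -2.12 ± 0.80 and an adjusted p of 0.0675 (edgeR) for ZSWIM8 KO against WT. For sgCYRANO against sgNT it gave 0.14 ± 0.84 and an adjusted p of 0.996 (edgeR). The 2 measured hairpins of the HOXD cluster, miR-10b and miR-7704, thus had values near -2 in ZSWIM8 KO, neither past the threshold, while the measured strands of the HOXB and HOXC clusters lay between -0.16 and 0.19 and miR-196b-5p of the HOXA cluster was at -0.74. Among the 4 groups, it was ZSWIM8 KO that stood apart for miR-10b-5p and WT for miR-7704. A difference between the clusters was not tested. How often microRNAs as scarce as miR-7704 reach such values was not counted.

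**Figure D4:**
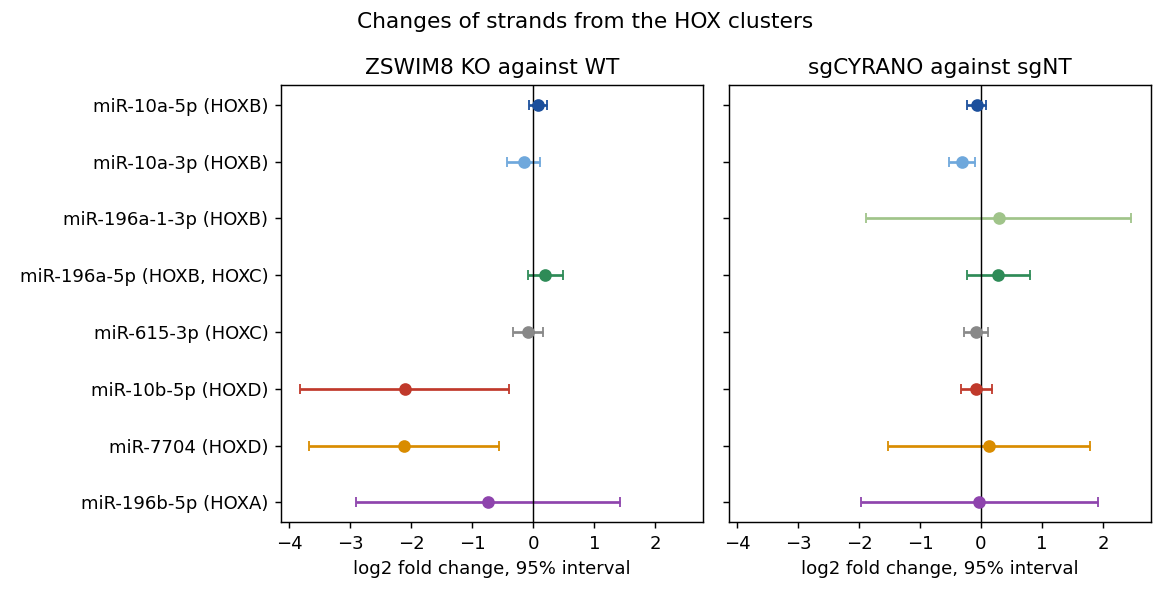
Log2 fold change with its 95% interval for each measured strand of hairpins in the HOX clusters, with the cluster in brackets, for ZSWIM8 KO against WT (left) and sgCYRANO against sgNT (right). The HOXD strands miR-10b-5p and miR-7704 lie at -2.11 and -2.12 on the left, and at -0.08 and 0.14 on the right.

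The relatives of miR-10 outside the HOX clusters were counted from a list of 5. In ZSWIM8 KO 2 of 5 passed, both lower, where 9.91% of all 868 microRNAs passed and 5.18% passed as lower. The relatives that passed were miR-99a-5p at -1.36 ± 0.29 and miR-125b-5p at -2.09 ± 0.53 in the authors' deposited table, with adjusted p-values of 8.31e-05 and 0.0018 (edgeR). miR-99a-5p had 22.6 CPM in ZSWIM8 KO and 58.1 CPM in WT. miR-125b-5p was scarce, with 2.25 CPM in ZSWIM8 KO and 9.96 CPM in WT. Both had 164 implied degrees of freedom, so their tests rested mainly on the spread shared by all microRNAs. miR-100-5p had 23.5 CPM in ZSWIM8 KO and 103.5 CPM in WT, close to the means of miR-10b-5p, with -2.13 ± 1.07 and an adjusted p of 0.240 (edgeR) in the authors' deposited table. Its implied degrees of freedom were 4.34. In the other groups it was not close to miR-10b-5p, with 58.4 CPM in sgCYRANO and 36.7 CPM in sgNT, and 0.67 ± 1.19 in the authors' deposited table. The abundant relatives miR-99b-5p and miR-125a-5p had 0.25 ± 0.10 and -0.02 ± 0.12 in that table and did not pass. In sgCYRANO 0 of 5 passed by the authors' edgeR test, where 0.119% of all 837 microRNAs did, and 0 were under an unadjusted p of 0.05, where 5.85% were.

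MicroRNAs with the most similar pair of fold changes were found among the 294 at 10 CPM or more in both tables, by the larger of the differences in the 2 log2 fold changes. The 3 nearest to miR-10a-5p were miR-26a-5p, miR-330-5p and miR-142-5p, within 0.02. The 3 nearest to miR-10a-3p were miR-769-5p, miR-101-3p and miR-30e-5p, within 0.09, and to miR-196a-5p miR-301b-5p, miR-3180-5p and miR-454-5p, within 0.06. Near to miR-10b-5p there was 1 microRNA within 0.2, miR-1246 at 0.17, followed by miR-215-5p at 0.56 and miR-100-5p at 0.75. For miR-10a-5p there were 59 within 0.2. Few microRNAs at 10 CPM or more had values near -2 in ZSWIM8 KO, where any strand has few neighbours. The error of miR-10b-5p there, 0.87, was also wider than 0.2, so these counts do not set its profile apart. miR-1246 had 84.5 CPM in ZSWIM8 KO and 325.4 CPM in WT, and passed the test there (adjusted p = 2.71e-20, edgeR, in the authors' deposited table).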

How the data were processed

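Small RNA of K562 cells was sequenced in 12 libraries, 3 for each of 4 groups. The submitters' processing notes list the build hg19 and the tools STAR, featureCounts, edgeR, FastQC 0.11.2 and bcl2fastq, without their roles. The data are the authors' deposited edgeR tables. Per the file headers they give log2 fold changes, mean log2 CPM and the F statistic (a score), with p-values before and after adjustment.

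The deposited adjusted p-values matched a Benjamini-Hochberg adjustment of their whole table within 1.09e-06. Group means were recovered by inverting the mean (prior count 2) and the fold change (prior count 0.125), and summed to 999948 and 999943 CPM per group. The columns could be inverted this way with library sizes near 1000000, so the deposited errors may take every library to be of that depth; the depth behind each is in the report. Low means were read as whole reads within 0.0015 CPM. Totals cannot be tied to replicate numbers. Each error is the deposited log2 fold change divided by the normal deviate that its p-value stands for, and intervals are 95%. Differences were tested with a normal reference. Strands of the same libraries were treated as independent. Procedures were tested on simulated data (Python 3.11.15, scipy 1.17.1). The alternatives were centring on the median, leaving out microRNAs under 10 CPM, reading F with 4 degrees of freedom, errors from F and no prior counts. Named microRNAs were the set, listed HOX-cluster strands and relatives, nearest fold changes and nearest levels. Members and lists were chosen with earlier results of these data known.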

Additional observations from a re-analysis of the deposited data

How the results depend on the processing

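No paired analysis was possible because the deposited tables hold comparisons and no values per library, and leaving out each replicate was not run for the same reason. Leaving out microRNAs under 10 CPM kept the log2 fold change of miR-10b-5p in ZSWIM8 KO at -2.11. It brought this strand and further microRNAs past the threshold, since fewer microRNAs were adjusted for. With errors from F, the difference of miR-10b-5p between both comparisons, -2.03, also passed (adjusted p = 0.0116, normal test). That error is read without its few degrees of freedom. Centring on the median turned miR-10a-5p in ZSWIM8 KO to -0.053 and its difference between both comparisons to -0.0054, with neither called. Reading F with 4 degrees of freedom left 3 of 86 calls in ZSWIM8 KO. With no prior count of the mean, the level of miR-196b-5p became 2.17 CPM in ZSWIM8 KO, 3.71 in WT, 3.11 in sgCYRANO and 3.18 in sgNT, and that of miR-196a-1-3p 3.17 in sgCYRANO and 2.56 in sgNT, by construction. The other 93 recomputed values kept their direction and side of the threshold, moved within counting error or, for counts of calls over all microRNAs, stayed within 1.5 times. Depth limits the 2 scarcest strands, and the spread between libraries limits miR-10b-5p in ZSWIM8 KO.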

Other observations

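The microRNAs nearest in level to the abundant strands give their surroundings, with log2 fold changes from the authors' deposited tables. In WT, miR-10a-5p stood between miR-20a-5p at 23657 CPM and miR-30d-5p at 21114 CPM, whose log2 fold changes for ZSWIM8 KO over WT in the authors' deposited table were -0.09 and 0.86. miR-10a-3p stood in WT between miR-27a-5p at 429.5 CPM and miR-340-3p at 409.7 CPM, with -0.66 and 0.35 in the authors' deposited table. miR-10b-5p stood in WT between miR-199b-5p at 115.3 CPM and miR-1260b at 111.8 CPM, with -0.71 and -0.31 in that table of the authors. miR-196a-5p stood in WT between miR-378a-5p at 296.6 CPM and miR-15b-5p at 287.4 CPM, with -0.14 and 0.09 in the authors' deposited table. In sgNT, miR-10b-5p stood between miR-502-3p at 166.0 CPM and miR-1278 at 162.1 CPM, with -0.15 and -0.11 for sgCYRANO in the authors' deposited table.

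The reads of miR-7704 lay unevenly over the libraries in sgCYRANO, with 1, 0 and 8 from the deepest to the shallowest, and with 4, 4 and 1 in sgNT. In ZSWIM8 KO it had 13 reads in all.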
